A study of Homo sapiens with 4 samples.

Results

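STAT3 and the receptor signalling of the interleukin-6 (IL6) family were examined in PLC8024, a human hepatocellular carcinoma (HCC) cell line, after flow sorting for CD133. The set holds 10 genes: the ligands LIF and IL11, the receptor chains IL6R, IL6ST, LIFR and OSMR, the kinases JAK1 and JAK2, the transcription factor STAT3 and the inhibitor SOCS3. Every probe set of the array that the platform annotation gives to one of these genes alone was taken, which made 37 of 54675 probe sets, and the 10 genes were among 19775 genes named this way. The groups were 1 CD133+ and 1 CD133- population of the same line, with no treatment given in the labels, and each was deposited in 2 processings, as RMA values on the log2 scale and as MAS5 intensities on a linear scale. The 2 processings are not replicates, and with 1 sample per population in each of them no difference has an error or a test.

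Cytokines of the IL6 family signal through cell-surface complexes that share the chain gp130, the product of IL6ST. IL6 and IL11 bind a specific alpha chain first, LIF brings gp130 together with LIFR, and oncostatin M brings it together with OSMR or LIFR. JAK kinases attached to the receptor tails then phosphorylate STAT3, which enters the nucleus and switches on target genes, among them SOCS3, whose product in turn blocks the receptor complex. In hepatocytes this pathway is known for driving the acute phase response, the release of plasma proteins such as fibrinogen and haptoglobin during inflammation.

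In the CD133+ population, OSMR and STAT3 were lower than in the CD133- population, while the shared chain IL6ST and the IL6 receptor gene IL6R lay close to equal. OSMR, the receptor chain that binds oncostatin M with gp130, was 4.59-fold lower in RMA, with a difference of -2.20 on the log2 scale. STAT3 was 2.25-fold lower, with a difference of -1.17. In RNA from a whole population, fewer cells with a transcript and less of it per cell cannot be told apart. Outside the 10 genes, the pathway lists held IL27RA, EBI3, STAT4, SOCS2 and TIMP1 as higher and NNMT, LBP and HPX as lower in CD133+. Of these, IL27RA and SOCS2 were under 2-fold with the median over their probe sets, and EBI3 was below the floor in CD133-.

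Where a gene has several probe sets, the one with the highest RMA level averaged over both populations stands for it. The expression floor was the median of each RMA column, 5.16 in CD133+ and 5.14 in CD133-, and a gene was above it when its larger value reached the median of that column. Counted genes are those above this floor whose difference was 2-fold or more, with 1 sign, in RMA as well as in MAS5. Of the 10 genes 8 were above the floor, and 2 of these 8 were counted as lower, with none counted as higher. Across the array 1.09% of 13116 genes above the floor were counted as lower, 2.25% as higher and 3.34% in either direction. The members' median RMA difference was -0.07, beside 0.00 over all genes above the floor. PROM1, the gene of CD133, gave RMA values of 10.35 in CD133+ against 6.04 in CD133-, so the sorted marker's transcript differed in the direction of the labels.

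The sequences upstream of the start sites of the 2 genes counted as lower are shown because these members moved in the same direction. RefSeq promoter windows of build GRCh38.p14 were matched by symbol for 9 of the 10 genes, in 17 windows, since several genes have more than 1 annotated start. LIF had no window and was not searched. Each stretch is the 250 bases before the start, written 5′ to 3′ on the strand of the gene, with matches to the GC box GGGCGG on either strand in capitals. OSMR lies on the plus strand at chr5:38845762-38846011, and STAT3 on the minus strand at chr17:42388443-42388692.
OSMR: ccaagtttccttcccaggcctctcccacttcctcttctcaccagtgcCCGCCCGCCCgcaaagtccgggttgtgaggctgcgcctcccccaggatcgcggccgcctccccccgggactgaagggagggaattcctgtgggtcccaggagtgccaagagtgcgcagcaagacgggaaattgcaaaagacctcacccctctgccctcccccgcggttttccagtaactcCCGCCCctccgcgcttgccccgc
STAT3: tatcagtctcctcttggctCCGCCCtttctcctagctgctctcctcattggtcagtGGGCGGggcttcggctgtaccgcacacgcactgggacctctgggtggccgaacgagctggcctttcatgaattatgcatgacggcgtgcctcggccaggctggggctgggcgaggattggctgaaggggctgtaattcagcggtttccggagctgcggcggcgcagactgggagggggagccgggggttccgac
The OSMR stretch holds 3 GC boxes, of which 2 overlap, and the STAT3 stretch holds 2. This motif is common, being present in 42.6% of 35116 windows of the same length. The palindromic STAT motif TTCNNNGAA is in neither stretch, nor in the SOCS3 windows, and bases outside the windows were not searched. The STAT motif is present in 6.57% of all windows and, among the 9 genes with a window, in those of LIFR alone, at 2 of its starts. The CCAAT box, searched by those letters on both strands, is in the STAT3 stretch 2 times and not in that of OSMR, and 32.0% of all windows hold it. The TATA box, searched as TATAAA, is in neither and in 10.7% of all windows. A match describes letters only and was not tested against the differences.

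Among the ligands, LIF, which encodes leukaemia inhibitory factor, has a single probe set. Its RMA values were 6.68 in CD133+ and 6.81 in CD133-, and its MAS5 intensities were 319.4 and 260.9. The small differences had opposite signs in the 2 processings, at -0.13 by RMA and 0.29 by MAS5 on the log2 scale. IL11, which encodes interleukin-11, had RMA values of 6.67 and 6.47 in probe set 206926_s_at, a difference of 0.20. Its MAS5 intensities of 31.1 and 78.1 went the other way, with a log2 ratio of -1.33. Both intensities were below the MAS5 column medians of 86.0 in CD133+ and 86.1 in CD133-, and the floor was set in RMA alone. The direction for IL11 thus depended on the processing, at low MAS5 signal, and the gene was not counted. Its other probe set, 206924_at, was below the floor in both populations, at 4.86 and 4.63.

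IL6ST, the gene of the shared signal-transducing chain gp130, was measured by 7 probe sets, of which 2 were above the floor. Probe set 212195_at gave RMA values of 9.31 in CD133+ against 9.32 in CD133- and MAS5 intensities of 2893 and 2495. Probe set 212196_at had RMA values of 7.38 and 7.72, with a difference of -0.34, and MAS5 intensities of 452.6 and 513.4. Both populations thus held IL6ST transcript above the floor at near-equal RMA values. The other 5 probe sets were below the floor in both populations, with differences from -0.48 to 0.33, and 204864_s_at had the same RMA value of 4.33 in both.

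IL6R, which encodes the alpha chain that gives cells their response to IL6, had 2 of 3 probe sets above the floor. In 226333_at RMA gave 8.54 in CD133+ and 8.51 in CD133-, and the MAS5 intensities were 1059 and 978.8. In 205945_at the RMA values were 7.47 and 7.76 and the MAS5 intensities 696.9 and 857.7. The RMA differences of 0.03 and -0.29 were well under 2-fold and had opposite signs. The third probe set, 217489_s_at, was below the floor, at 4.66 and 4.72.

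OSMR had the largest difference of the members above the floor, and its 2 probe sets with both values above the floor were counted as lower in CD133+. Probe set 226621_at gave RMA values of 6.55 in CD133+ against 8.75 in CD133-, and MAS5 intensities of 490.3 and 1673. Probe set 1554008_at had RMA values of 6.27 and 8.10, which is 3.55-fold lower, and MAS5 intensities of 374.5 and 1180. In probe set 205729_at the CD133- value was 6.46 and the CD133+ value of 4.03 was below the floor, so no fold is given. This probe set passed the floor through CD133- alone, and its log2 differences were -2.43 by RMA and -2.12 by MAS5. The CD133+ value was below the CD133- value in each probe set and in each processing. In the order of RMA differences from the lowest, OSMR stood at place 32 of the 13116 genes above the floor. Its fold was smaller in MAS5, where 226621_at was 3.41-fold lower.

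LIFR, which encodes the receptor chain for LIF, lies next to OSMR on the chromosome and was below the floor in both populations in all 5 of its probe sets. Its RMA values ran from 1.81 to 4.26 in CD133+ and from 2.53 to 4.91 in CD133-. The RMA difference was below 0 in 4 of the 5, and the largest was -1.13 in 225575_at, from values of 3.42 and 4.55. At this signal no difference can be read for LIFR.

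**Figure D1:**
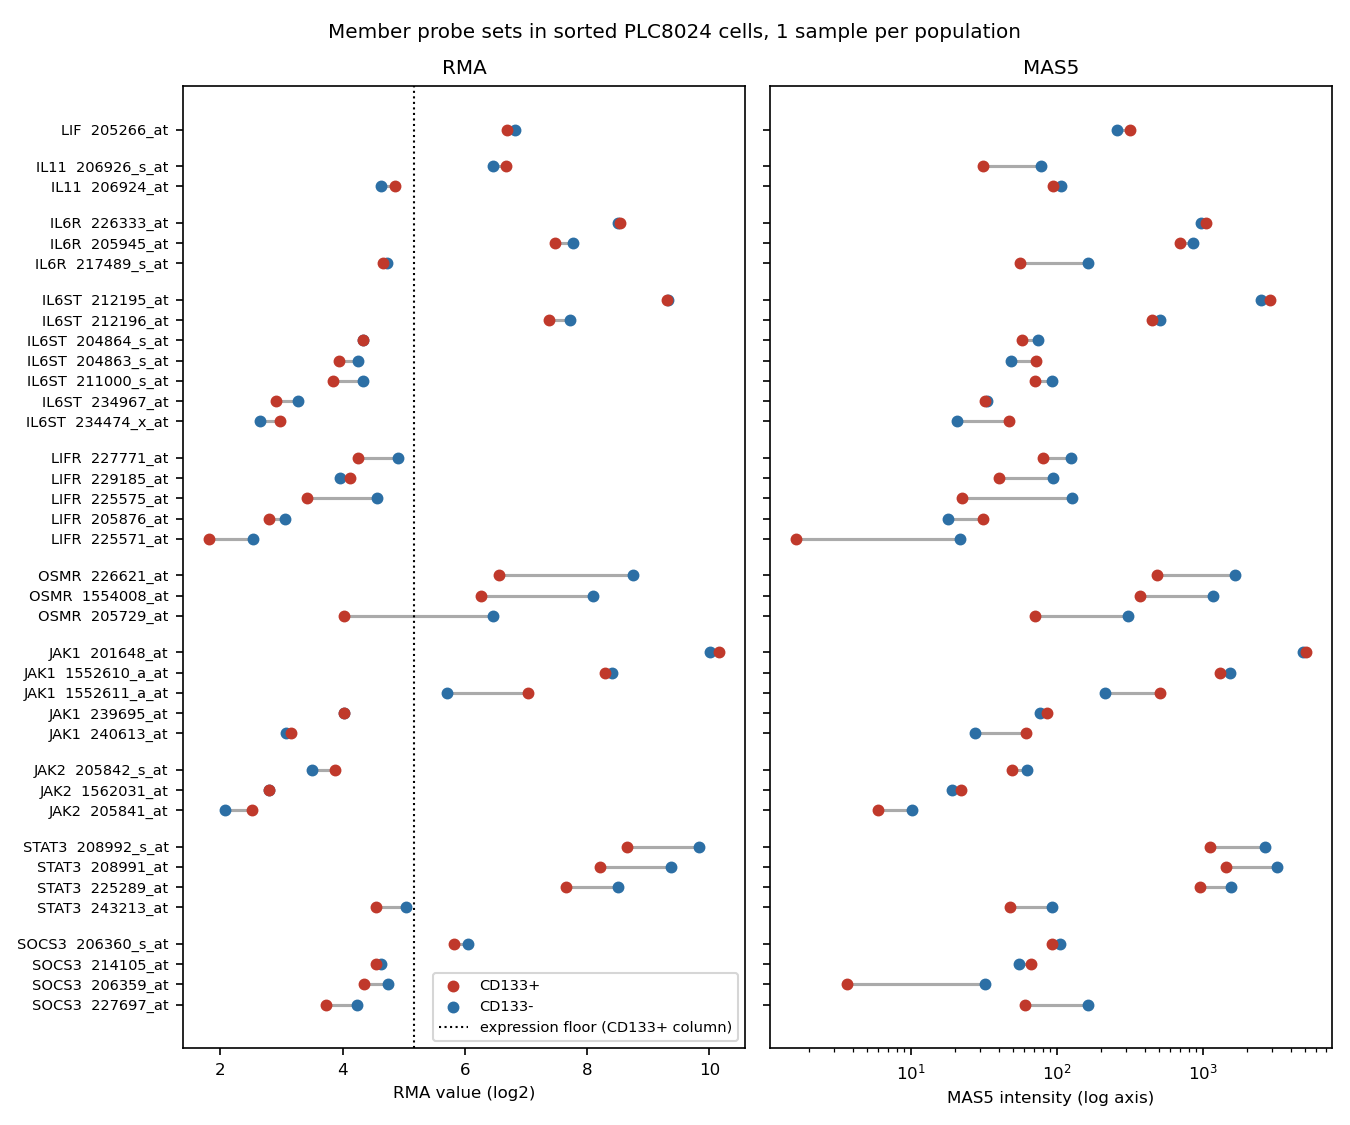
RMA values on the log2 scale (left) and MAS5 intensities on a log axis (right) of the 37 probe sets of the 10 genes, with 1 red point for the CD133+ and 1 blue point for the CD133- population in each row. The dotted line is the floor of 5.16 in the CD133+ column. The 3 OSMR probe sets and the 3 STAT3 probe sets above the floor have the CD133+ point on the left in both panels. STAT3 probe set 243213_at was below the floor in both populations.

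JAK1, a kinase attached to gp130, had probe sets that did not run together. Probe set 201648_at gave RMA values of 10.16 in CD133+ against 10.004 in CD133-, and MAS5 intensities of 5141 and 4864. Probe set 1552610_a_at had RMA values of 8.28 and 8.41 and MAS5 intensities of 1321 and 1539. These both lay close to equal. Probe set 1552611_a_at, in contrast, had RMA values of 7.02 and 5.70, which is 2.50-fold higher in CD133+, and MAS5 intensities of 506.5 and 215.1. The RMA differences of the 3 probe sets spanned 1.45, a wider range than in 99.2% of 6170 genes with more than 1 probe set above the floor. The gene as represented by 201648_at was not counted. The 2 remaining JAK1 probe sets, 239695_at and 240613_at, were below the floor in both populations.

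JAK2, the other JAK kinase among the 10 genes, was below the floor in all 3 of its probe sets. Its RMA values ran from 2.51 to 3.88 in CD133+ and from 2.08 to 3.49 in CD133-. No difference can be read for JAK2 at this signal.

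STAT3, the transcription factor on which the pathway converges, had 3 of 4 probe sets above the floor. These were lower in CD133+ in both processings, and 2 of them passed 2-fold in both. Probe set 208992_s_at gave RMA values of 8.66 in CD133+ against 9.83 in CD133-, and MAS5 intensities of 1117 and 2685, which is 2.40-fold lower. Probe set 208991_at had RMA values of 8.21 and 9.36 and MAS5 intensities of 1453 and 3217, which is 2.23-fold lower in RMA. Probe set 225289_at had RMA values of 7.66 and 8.51, a difference of -0.85, and MAS5 intensities of 966.1 and 1555. It was above the floor and below 2-fold, so it was not counted. Probe set 243213_at was below the floor, at 4.54 and 5.03. The RMA differences of the 3 probe sets above the floor spanned 0.32, less than in the 3 of OSMR, which spanned 0.60. With the median over its 4 probe sets the STAT3 difference was -1.003, just past the 2-fold threshold, and that median takes in the probe set below the floor.

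SOCS3, whose product inhibits gp130 receptor complexes and whose gene is a target of STAT3, had 1 of 4 probe sets above the floor. In 206360_s_at the RMA values were 5.82 in CD133+ and 6.05 in CD133-, and the MAS5 intensities were 93.2 and 104.7. The difference of -0.23 in RMA was not counted. The RMA values of the 3 probe sets below the floor ran from 3.73 to 4.54 in CD133+ and from 4.24 to 4.74 in CD133-. No difference can be read for these 3 at this signal.

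Over single probe sets, 16 of the 37 were above the floor, of which 5 were counted as lower and 1, that of JAK1, as higher. Across the array 1.13% of 23625 probe sets with 1 gene above the floor were counted as lower, 1.92% as higher and 3.05% in either direction. The 5 counted as lower belong to OSMR and STAT3 only, 4 of them had both values above the floor, and probe sets of 1 gene are not independent. Of the 16, 13 had the same sign in both processings, which is 81.2%, beside 77.5% of all such probe sets. The 3 that did not were those of LIF, IL11 and IL6ST (212195_at).

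**Figure D2:**
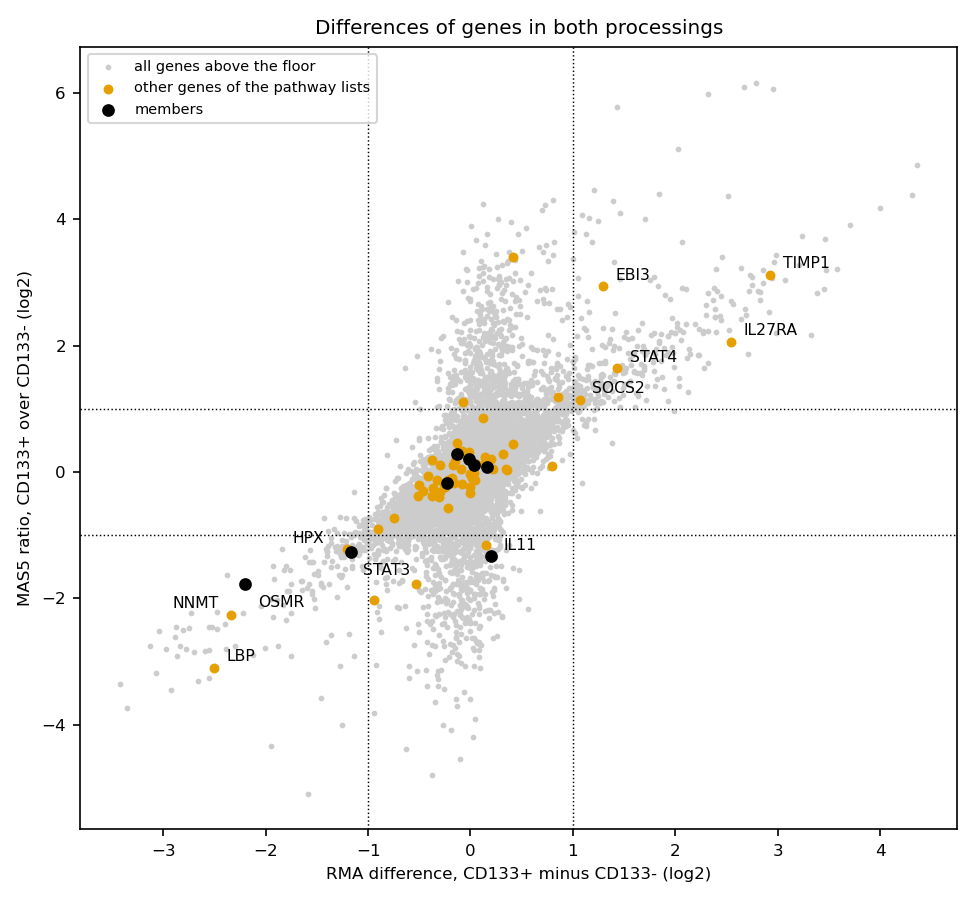
RMA difference (horizontal axis, log2) against MAS5 ratio (vertical axis, log2) of each gene above the floor, CD133+ relative to CD133-. Grey points are all 13116 genes, orange points other genes of the pathway lists, black points the members, and dotted lines mark 2-fold. OSMR at -2.20 and STAT3 at -1.17 are the members past both lines, and IL11 is past the MAS5 line alone.

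The rest of the pathway was described by lists of receptors, ligands, kinases, STAT factors, inhibitors, STAT3 target genes and acute phase genes. Together these hold 71 genes above the floor, of which 5 were counted as higher and 5 as lower, beside 2.25% and 1.09% of all genes. OSMR and STAT3 are 2 of the 5 lower genes. Both values were above the floor in 9 of the 10 counted genes, all but EBI3. No list was tested, and a count this small describes these 2 populations only.

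Of the 6 receptor genes above the floor, IL27RA was higher and OSMR lower in CD133+, and the median difference was 0.19. That median rests on few genes, being 0.032 with the floor at the 75th percentile or with none and 0.10 in MAS5 alone. IL27RA, which encodes the chain that pairs with gp130 to bind interleukin-27, gave RMA values of 7.68 in CD133+ against 5.14 in CD133-, with MAS5 intensities of 614.7 and 147.0. This is 5.84-fold in RMA, from a CD133- value that lies at the floor. Its probe set 205926_at had a smaller difference of 0.80, from values of 6.27 and 5.47, and 217702_at was below the floor. The median over its 3 probe sets was likewise 0.80, which would leave IL27RA uncounted. IL11RA, the alpha chain for IL11, had a difference of 0.80 by RMA and 0.09 by MAS5. CNTFR, the alpha chain for ciliary neurotrophic factor, had differences of 0.35 and 0.04, and neither was counted.

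Of the 6 ligand genes above the floor, EBI3 was counted as higher. EBI3, which encodes a subunit of interleukin-27, gave RMA values of 6.26 in CD133+ against 4.97 in CD133-. The CD133- value was below the floor, so EBI3 passed it through CD133+ alone and no fold is given, and the log2 differences were 1.29 by RMA and 2.94 by MAS5. IL27, which encodes the partner subunit (picked with its values known), had RMA values of 5.74 and 5.82. OSM, the gene of the ligand that uses OSMR, had RMA values of 5.89 and 5.73, with differences of 0.15 by RMA and -1.16 by MAS5. Its MAS5 intensities of 12.7 in CD133+ and 28.3 in CD133- were below the MAS5 column medians of 86.0 and 86.1. CTF1, which encodes cardiotrophin 1, had an RMA difference of -0.13. IL6 itself, likewise picked with its values known, was below the floor at 4.71 and 4.41. The ligand transcripts other than EBI3 thus showed no 2-fold difference that both processings shared.

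None of the 3 JAK genes above the floor was counted. JAK3, a kinase of lymphoid cytokine receptors, had an RMA difference of -0.30, TYK2 one of -0.16 and JAK1 one of 0.16. Of 5 STAT genes, STAT3 was lower and STAT4 higher. STAT4, which acts in interleukin-12 signalling in lymphocytes, gave RMA values of 7.13 in CD133+ against 5.70 in CD133-, with MAS5 intensities of 641.7 and 205.0. It was thus 2.70-fold higher in RMA, in its single probe set. STAT6, which acts in interleukin-4 signalling, had a difference of 0.14. STAT5A, which acts in growth hormone and prolactin signalling, had one of -0.07 in RMA but 1.10 in MAS5.

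Of 16 inhibitors and phosphatases, SOCS2 was counted as higher and none as lower. SOCS2, which restrains growth hormone signalling, gave RMA values of 9.13 in CD133+ against 8.06 in CD133-, which is 2.09-fold, and MAS5 intensities of 1836 and 830.3. Its probe set 203372_s_at had a difference of 0.83, which was also the median over its 3 probe sets and would leave SOCS2 uncounted. SOCS5, PIAS2 and SOCS3 had the next largest differences, at -0.47, -0.33 and -0.23, and were not counted. The list's median was 0.01, beside 0.00 over all genes.

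Of 23 STAT3 target genes above the floor, 3 were counted as lower and 1 as higher, and 17 had a difference below 0, which is 73.9% beside 49.9% of all genes. The list's median was -0.22, but -0.096 without the _x_at and _s_at probe sets and -0.11 in MAS5 with a pseudocount of 50. OSMR and STAT3 are 2 of the 3, since both are also described as STAT3 targets. The other is NNMT, which encodes nicotinamide N-methyltransferase, with RMA values of 9.44 in CD133+ against 11.78 in CD133-, and MAS5 intensities of 3174 and 15160. It was 5.06-fold lower in RMA and was counted in all 3 of its probe sets. TIMP1, which encodes a metalloproteinase inhibitor, went the other way, with RMA values of 8.74 and 5.81, which is 7.61-fold higher. Left without OSMR, STAT3, IL6ST and SOCS3, the remaining 19 genes had a median of -0.22 and 13 differences below 0, a check that was added once the values were known.

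Of 16 acute phase genes above the floor, 2 were counted as lower, with none higher, and the median was -0.30. SERPINA3 and ITIH4 passed the floor through CD133- alone, and C4BPA through CD133+ alone. With the floor at the 75th percentile the median was -0.245, and with no floor it was -0.251. LBP, which encodes the lipopolysaccharide-binding protein of plasma, gave RMA values of 7.25 in CD133+ against 9.75 in CD133-, and MAS5 intensities of 503.2 and 4301. It was 5.66-fold lower in RMA, and its other probe set had a difference of -2.59. HPX, which encodes the haem carrier hemopexin, had RMA values of 7.81 and 9.02 and was 2.31-fold lower. HP, which encodes haptoglobin, had differences of -0.94 by RMA and -2.03 by MAS5. Its CD133+ signal was low, with an RMA value of 5.41 near the floor and a MAS5 intensity of 56.9, below the column median of 86.0. C3, the central complement gene, had differences of 0.85 by RMA and 1.19 by MAS5. The fibrinogen genes FGA, FGB and FGG, picked with their values known, had RMA differences of -0.30, -0.09 and -0.01. In MAS5 alone the median of the list was -0.038, and with a pseudocount of 50 it was -0.044. With the median over probe sets of each gene it was -0.17. The shift of the full list was thus seen in RMA and hardly in MAS5. Without SERPINA1 and FGB, which are also liver tumour cell markers, the MAS5 median of 14 genes was -0.18. This alternative was added after seeing the data. Liver tumour cell markers moved in the same direction, with 3 of 10 lower and none higher. The 3 lower markers were ALB, which encodes albumin, AFP, which encodes alpha-fetoprotein, and APOA1, which encodes an apolipoprotein. Their RMA differences were -3.42, -2.78 and -1.80. The part of these markers in the acute phase differences was not tested.

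**Figure D3:**
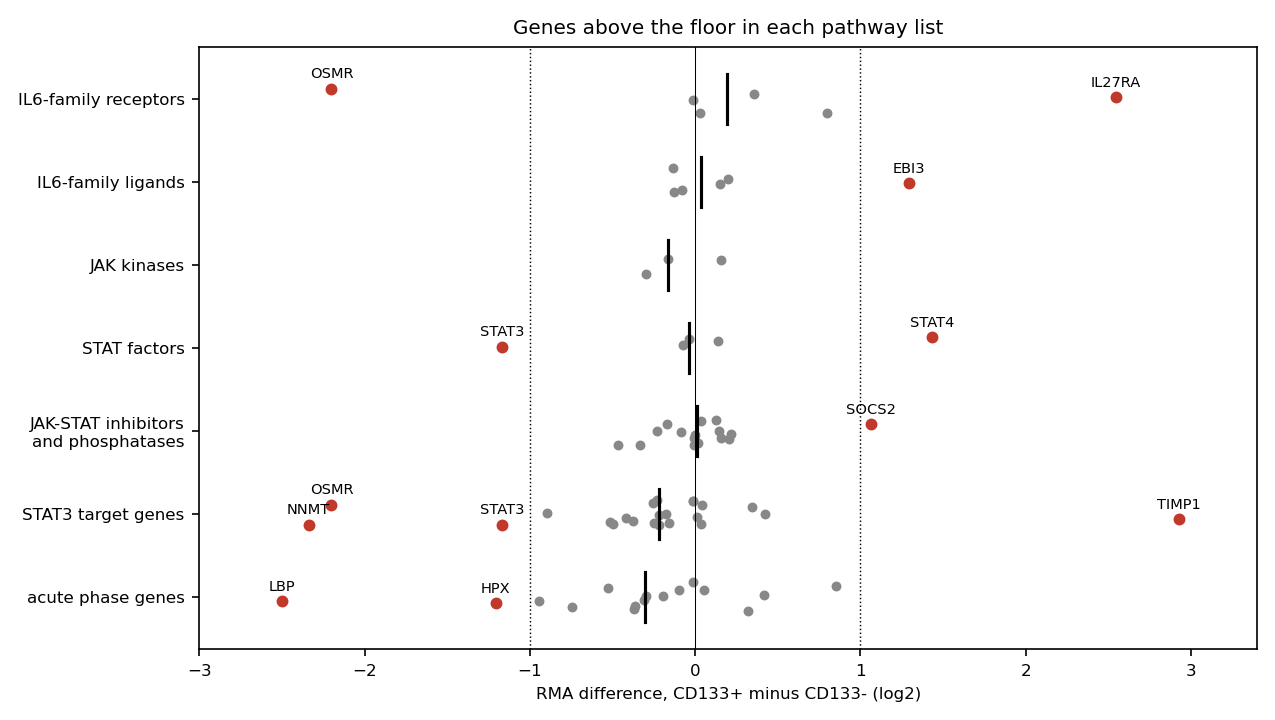
RMA difference (horizontal axis, log2, CD133+ minus CD133-) of the genes above the floor in each of 7 pathway lists, 1 point per gene, spread vertically for legibility. Red points with names are genes counted at 2-fold in RMA and MAS5, grey points are the others, black bars are list medians and dotted lines mark 2-fold. The medians of STAT3 target genes at -0.22 and acute phase genes at -0.30 are the lowest.

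The TTCNNNGAA motif was also looked up in the other pathway genes. Of the 61 list genes with a RefSeq window, 8 hold it within 250 bases before a start, namely CISH, FGA, HAMP, ICAM1, IRF1, ITIH4, LIFR and LRG1. None of the 8 was counted as different, beside 3.34% of all genes above the floor, and HAMP and LIFR were below the floor. Of the 10 counted pathway genes, 7 have a window, and the motif is in none of them, beside 6.57% of all windows. Both counts are too small to relate the motif to the differences, and this was not tested.

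The differences of OSMR and STAT3 were set beside those of the genes next to them on the chromosome, a comparison chosen once their values were known. Among the 5 protein-coding genes on each side of OSMR, 6 were above the floor and 1 was counted. RICTOR, a subunit of mTOR complex 2 and the next gene above the floor, had an RMA difference of -0.30. DAB2, an endocytic adaptor, had -0.88. PTGER4, a prostaglandin E2 receptor gene, was counted as higher with RMA values of 6.74 and 4.85, the latter below the floor, so that it passed the floor through CD133+ alone. In MAS5 DAB2 was at -1.07, so it passed 2-fold there but not in RMA, and OSMR was the one gene of this run counted as lower. Among the 10 neighbours of STAT3, 8 were above the floor and none was counted. STAT5A and STAT5B, which lie beside STAT3, had RMA differences of -0.07 and -0.04. HSD17B1, which encodes a steroid dehydrogenase, had the lowest, at -0.88, and was at -1.04 in MAS5. CAVIN1, the next gene on the other side of STAT3 from STAT5A, had 0.76 in RMA and 2.16 in MAS5. STAT5A was at 1.10 in MAS5, so HSD17B1, CAVIN1 and STAT5A passed 2-fold there but not in RMA.

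**Figure D4:**
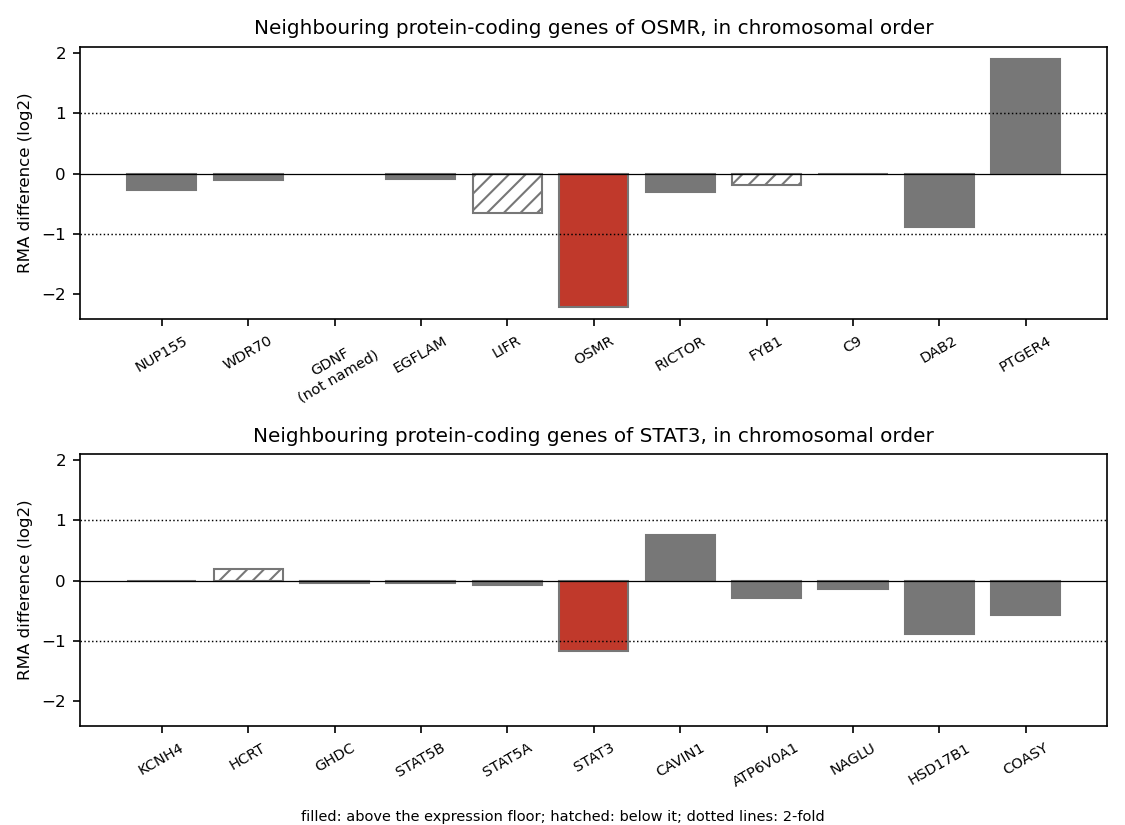
RMA difference (vertical axis, log2, CD133+ minus CD133-) of OSMR, STAT3 and the 5 protein-coding genes on each side in chromosomal order (horizontal axis, not to distance). Filled bars are genes above the floor, hatched bars genes below it, a gene marked as not named has no value here, and dotted lines mark 2-fold. OSMR and STAT3, in red, are the genes past 2-fold on the lower side of RMA in their runs.

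Of the liver tumour cell markers all 10 measured were above the floor in both populations. Of all 19775 genes, 12817 were above it in CD133+ and 12730 in CD133-, so passing the floor does not check the identity of the cells. SERPINA1 had the highest value, at 13.61 and 13.56. TTR passed the RMA floor, but its MAS5 intensities of 82.1 and 20.5 were below the MAS5 column medians of 86.0 and 86.1. Markers of other cells were also read. Of 10 leukocyte markers 5 were above the floor, and LYZ, the lysozyme gene, was counted as higher, at 11.14 and 9.42. The other 4 above the floor, CD163, ITGAM, CD3D and CD3E, were not counted, and CD163 passed it through CD133- alone. PTPRC, which encodes the pan-leukocyte antigen CD45 (picked with its values known), was below the floor at 3.01 and 2.94. Of 9 endothelial markers only PECAM1 was above the floor, and it was counted as lower, at 6.11 in CD133+ and 7.87 in CD133-. None of 10 fibroblast and stellate cell markers was counted, 5 of them being above the floor with the highest value in COL1A1, at 8.27 and 8.08, and neither of the 2 erythroid markers was counted, with HBB at 6.07 in both.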

How the data were processed

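RNA from 1 CD133+ and 1 CD133- population was measured on arrays. The authors deposited MAS5 intensity values on a linear scale and RMA values on the log2 scale, per the labels. Per the submitters' processing notes the tools were GCOS with MAS5 or RMA. The sources used here give neither their versions nor which arrays were normalized together. The trimmed means of the MAS5 columns were 499.9 in both. The number of arrays, 1 for each population in a processing, limits the precision, and no statistical test was run.

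Gene names came from GEO's platform annotation, with symbols updated through gene IDs in a RefSeq table (GRCh38.p14). Probe sets with several genes or none, 1801 and 11777 of 54675, were left unnamed. The floor was the median of each RMA column, and the count needed 2-fold in both processings. RMA differences are CD133+ minus CD133-, and MAS5 values are given as log2 of the ratio. The script that makes the counts was checked on simulated data with known differences. These were larger than that of STAT3 and lay in genes well above the floor. The check therefore does not cover smaller differences or genes near the floor. Python 3.11.15 and pandas 2.3.3 were used.

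The members and lists were chosen with earlier results of these data known. Named were the 10 members, PROM1, in each pathway list every counted gene and up to 4 genes above the floor by size of RMA difference, and in each marker list the counted genes and the one with the highest value. The tables hold 10 of the 88 list genes under no probe set of their own, and these are not analysed here. With 2 populations no gene of like pattern could be named. Alternatives were MAS5 or RMA alone, a pseudocount of 50, other floors, median centring, other choices of probe set and 1.5-fold.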

Additional observations from a re-analysis of the deposited data

How the results depend on the processing

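OSMR and STAT3 were counted as lower under all 9 alternatives, and IL11 was added in MAS5 alone, which makes 3 counted members where 13.3% of all 13116 genes above the floor were counted, against 3.34% by the rule of the report. The STAT3 difference ran from -1.27 to -1.003 and that of OSMR from -2.22 to -1.67. The 8 other counted pathway genes kept their direction in every alternative run, IL27RA ranged from 0.80 to 2.54 and SOCS2 from 0.83 to 1.14, both lowest, under 2-fold, with the median over probe sets. List medians moved by more than 0.1 as follows, and the cause was not tested. Receptors had 0.032 with a 75th-percentile floor and with none. Ligands had 0.31 in MAS5 alone, 0.16 with a pseudocount of 50 and -0.080 once _x_at and _s_at probe sets were left out. JAK kinases had -0.0031 at both other floors and 0.088 with the median over probe sets. STAT factors had 0.28 in MAS5 alone and 0.25 with the pseudocount, and inhibitors 0.13 with the median over probe sets. STAT3 targets had -0.11 with the pseudocount and -0.096 when the _x_at and _s_at ones were left out. Acute phase genes had -0.038 in MAS5 alone, -0.044 with the pseudocount and -0.17 with the median over probe sets. Without 2 genes also in the liver marker list, an alternative added after seeing the data, they had -0.34 in RMA and -0.18 in MAS5. No paired analysis was possible because each group has 1 sample. Sorts, cultures and arrays vary in ways these data cannot show, and probe sets below the floor, among them all those of LIFR and JAK2, give no readable difference.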
